A study of Macaca mulatta with 24 samples.

Results

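Endometrium, the lining of the uterus, was compared between days 6 and 4 of conception cycles in rhesus monkeys (Macaca mulatta). The comparison uses 8 of the 24 arrays of the series, 4 labelled day 6 and 4 labelled day 4, chosen by their labelled cycle type and day alone. Both groups came from female rhesus monkeys that had been mated in cycles with proven conception. The sample descriptions count the days after ovulation, and the source names call the same days post fertilization. The labels used here give no age, strain or genotype and no treatment, and nothing in them says that each array stands for a different animal. The p-values therefore cover the variation among these arrays, part of which may be technical. The remaining arrays cover day 2 of conception cycles and days 2, 4 and 6 of non-mated, normo-ovulatory cycles, with 4 arrays in each group. For the non-mated arrays of days 4 and 6 the labels conflict: their titles say day 2, under group codes of their own, while their source names, descriptions and day entries say day 4 or day 6, which was used here. Each sample was bulk tissue RNA hybridised in 1 colour (Cy3) to an Agilent rhesus array. In such tissue, fewer cells of a type and less RNA per cell cannot be told apart.

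After ovulation, progesterone from the corpus luteum turns the proliferating endometrium into a secretory tissue, in which epithelial division stops and glands release proteins such as glycodelin and osteopontin. The embryo travels down the oviduct and reaches the uterine cavity as a morula or early blastocyst before it implants. Uterine natural killer cells, macrophages and stromal fibroblasts change in number and state over the same days.

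Between 54.2% and 59.7% of probes stood well above background on the day 6 arrays, and between 53.3% and 60.5% on the day 4 arrays. A probe passed the filter if it was well above background on 3 or 4 arrays of either day: 9735 features passed on both days, 400 through day 6 alone and 419 through day 4 alone. A feature that passed through 1 day alone was chosen in part for being bright there, so counts or medians that include such features are not support for a direction. Levels below are log2 signals minus the array's own 75th percentile, so a level of 0 is the signal of the probe at that percentile, and levels of different probes are not set against each other. Day 6 replicate 3 had 616 spots marked as outliers, against at most 50 on each of the other 7 arrays. None of the 28 pairs of arrays held identical values. Arrays scanned on the same day resembled each other more than arrays of the same cycle day: the median correlation across features was 0.907 for pairs of the same cycle day and scan day, 0.905 for pairs of different cycle days on the same scan day, 0.874 for pairs of the same cycle day on different scan days and 0.873 where both differed. On the first principal component, which held 38.5% of the variance, the day 6 arrays lay at -65.6, 21.9, 51.9 and 31 and the day 4 arrays at -55.9, -43.5, 32.2 and 27.9, in the order of replicates 1 to 4. Day 6 replicate 1 thus lay with day 4 replicates 1 and 2, and the other 3 day 6 arrays lay with day 4 replicates 3 and 4. Each scan day held 2 arrays of each cycle day, and of the 43 gene lists below with a measured member, 24 had medians of opposite sign within scan day 1 and scan day 2. These medians are given beside some of the lists, and the plot of gene lists shows them for every list of 3 or more members.

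The samples carried the markers of endometrial tissue at both days. All 9 epithelial markers with a probe passed the filter, with CLDN3, CLDN4 and KRT18 well above background on all 8 arrays, as did 8 of 10 markers of stromal fibroblasts, among them VIM, DCN and COL3A1. Smooth muscle genes were also present, with 9 of 12 measured and DES and MYH11 well above background on all 8 arrays. Endothelial (7 of 8), natural killer (7 of 10), macrophage (9 of 10) and ciliated cell markers (6 of 7) were mostly measured. Of 9 neutrophil markers none passed, and of 7 trophoblast markers only KRT7, which uterine epithelium also makes, and TFAP2A passed.

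No gene passed the threshold between day 6 and day 4. Of 10554 features tested, 0 (0%) had an adjusted p under 0.05 in limma with Benjamini-Hochberg adjustment, and the lowest adjusted p was 0.509. At an unadjusted p under 0.05, 388 features (3.68%) were higher and 129 (1.22%) were lower at day 6, 517 (4.90%) in all. The day 6 and day 4 arrays did not overlap for 197 features that were higher at day 6 (1.87%) and 64 that were lower (0.606%). The median difference over all features was -0.0066 on the log2 scale, and 49.1% of features were above 0. Differences beyond 1 on the log2 scale were measured for 325 features above and 171 below, and the median standard error of a difference was 0.35. A p that misses the threshold does not show that levels did not differ, and the genes below are described by their values.

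The probes of the genes with the smallest p in each direction are shown by their first 30 of 60 bases, 5′ to 3′, as the deposited scanner files list them, because base composition bears on a result given further on, and the GJD4 and MAPK8IP3 probes are rich in G and C. Capitals mark G and C.
C2H3orf22: CCCCaaaaaGCtaCGCCaaGCtaataaaCt
DOC2A: CCCCaCCCtGCaCtaCCttatttttGtGaa
SLC51B: aGaCataCCaGaaaCtGaGaGCtaGtGaGG
GJD4: CCtGCaGCCCCCtGaCCCGCCtGCCaGCtC
MAPK8IP3: GCCCaGCCCCCGCaCCCaCCCCCaaCCaGa
UNC13D: GGGGCtGGCaCGGaCaGaCGGaaGCaGaaa
FST: atatCttCtattCtaGaGtGGtaaaCtCtC
MAP3K1: CaattGtGGCtCattGtGCattttaCtGtt
The first 5 belong to genes higher at day 6 and the last 3 to genes lower at day 6. By the rheMac2 coordinates in those files, the C2H3orf22 probe lies at chr2:46322665-46322724, minus strand, the DOC2A probe at chr20:27973119-27973178, minus strand, and the SLC51B probe at chr7:43526742-43526801, plus strand. The GJD4 probe lies at chr9:35814742-35814801, plus strand, and the MAPK8IP3 probe at chr20:1756427-1756486, plus strand. The UNC13D probe lies at chr16:71144002-71144061, minus strand, the FST probe at chr6:51147322-51147381, plus strand, and the MAP3K1 probe at chr6:54553780-54553839, plus strand. Over the whole 60 bases, G and C made up 71.7% of the GJD4 probe and 68.3% of the MAPK8IP3 probe, against 36.7% of the FST probe and 36.7% of the MAP3K1 probe. Exon, intron or UTR positions of the probes were not analysed here.

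The 10 genes with the smallest p among those higher at day 6 were C2H3orf22, DOC2A, SLC51B, FITM1, GJD4, MAPK8IP3, PLD4, ENTPD8, TMEM145 and CCDC27, and for all 10 every day 6 array lay above every day 4 array. C2H3orf22, annotated as an uncharacterized protein, had log2 levels of -3.25, -3.59, -2.52 and -2.69 on day 6 arrays 1 to 4, against -4.72, -4.96, -4.47 and -6.0 on day 4 arrays 1 to 4. Its probe was well above background on 3 of 4 day 6 arrays and on no day 4 array, so it passed the filter through day 6 alone. On the means of these arrays, day 6 was at least 2.43-fold higher (-3.01 ± 0.50 at day 6 and -5.04 ± 0.67 at day 4, SD, n = 4 each, limma adjusted p = 0.509). This bound sets the mean of the bright group against the higher of the dim probe's own signal and the lowest signal that stood well above background on each array. It allows for signals near background but not for the spread among arrays, so it is not a confidence limit. DOC2A, a calcium sensor with C2 domains that acts in vesicle release, had levels of 2.04, 0.47, 1.37 and 2.23 at day 6, against -0.081, -0.76, -0.25 and -0.21 at day 4. The DOC2A difference was 1.85 ± 0.35 (SE) on the log2 scale, with a limma adjusted p of 0.509. SLC51B, the beta subunit of the basolateral transporter of bile acids and conjugated steroids, had levels of -1.81, -3.54, -2.47 and -1.83 at day 6, against -4.17, -4.32, -4.33 and -4.53 at day 4. It too was well above background on 3 of 4 day 6 arrays and no day 4 array, and passed the filter through day 6 alone. On the means of these arrays, SLC51B was at least 3.35-fold higher at day 6 (-2.41 ± 0.81 at day 6 and -4.34 ± 0.15 at day 4, limma adjusted p = 0.509).

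FITM1, an endoplasmic reticulum protein that promotes lipid droplet formation, had levels of -0.11, -0.30, -0.27 and -0.51 at day 6, against -1.32, -1.29, -1.2 and -2.03 at day 4. Day 4 replicate 4 was its lowest array, and the difference was 1.16 ± 0.25 (limma adjusted p = 0.509). GJD4, a connexin of gap junctions, had levels of 2.42, 2.8, 3.12 and 2.59 at day 6, against 1.69, 1.73, 1.87 and 0.97 at day 4, a difference of 1.17 ± 0.25 (limma adjusted p = 0.509). MAPK8IP3, a scaffold of JNK signalling and a kinesin adaptor, had levels of 3.32, 3.45, 4.21 and 3.23 at day 6, against 2.57, 2.11, 2.51 and 1.46 at day 4. Its difference was 1.39 ± 0.31, and as for FITM1 and GJD4 its lowest value came from day 4 replicate 4. The other 4 genes differed by 1.38 (PLD4, an endolysosomal exonuclease of the phospholipase D family), 1.27 (ENTPD8, a cell-surface nucleotidase), 1.05 (TMEM145) and 1.84 (CCDC27). Within the arrays of scan day 1 and of scan day 2, DOC2A stood at 2.03 and 1.67 and CCDC27 at 2.29 and 1.38. As the arrays of these 10 genes did not overlap, no difference within a scan day could fall below 0.

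Among the genes lower at day 6, those with the smallest p included UNC13D, FST, MAP3K1, CD48, COX19, HOOK2, SGK1, GAS8 and F2. For 6 of these 9 the arrays did not overlap, while they did for HOOK2, SGK1 and F2. UNC13D, which primes the granules of cytotoxic lymphocytes for release, had levels of -2.79, -3.36, -3.5 and -3.42 at day 6, against -1.94, -1.72, -1.62 and -1.6 at day 4. Its difference was -1.55 ± 0.31 (limma adjusted p = 0.509). FST encodes follistatin, a secreted protein that binds activin, and its levels were -3.8, -5.53, -3.87 and -5.67 at day 6, against -0.99, -1.27, -3.03 and -2.86 at day 4. The FST probe was well above background on 1 of 4 day 6 arrays and on all 4 day 4 arrays, and the measured difference was -2.68 ± 0.58 (limma adjusted p = 0.509).

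MAP3K1, a kinase upstream of the JNK and ERK pathways, had levels of 1.06, 0.58, 1.15 and 1.0 at day 6, against 2.09, 1.97, 3.46 and 1.97 at day 4. Day 4 replicate 3 stood above the other 3 day 4 arrays, and the difference was -1.42 ± 0.35 (limma adjusted p = 0.509). A separate MAP3K1 probe gave -1.5. CD48, a surface receptor of lymphocytes and other blood cells, had levels of -2.82, -2.8, -3.39 and -2.89 at day 6, against -1.41, -2.24, -2.35 and -1.09 at day 4, a difference of -1.2 ± 0.37 (limma adjusted p = 0.656). COX19, needed to assemble cytochrome c oxidase, had levels of 0.59, 0.076, 0.63 and 0.47 at day 6, against 1.04, 1.02, 1.21 and 1.55 at day 4, a difference of -0.76 ± 0.23, and its other probe gave -0.60. HOOK2, a linker of microtubules to cargo, differed by -1.44, and SGK1, a kinase induced by glucocorticoids and progesterone that regulates epithelial sodium transport, by -1.29. GAS8, a part of the ciliary dynein regulatory complex, differed by -0.76, and F2, prothrombin, by -1.52. All 9 were below 0 within each scan day, which is fixed in advance for genes whose arrays do not overlap. HOOK2, SGK1 and F2, whose arrays overlapped, stood at -1.41, -0.82 and -0.83 within scan day 1. Within scan day 2 these 3 stood at -1.48, -1.76 and -2.21. Of the 145 genes named by the rules used here, 7 had at least 1 other measured probe, and 7 of these 8 other probes had the sign of the probe used, the exception being a probe of ATP5F1D.

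**Figure D1:**
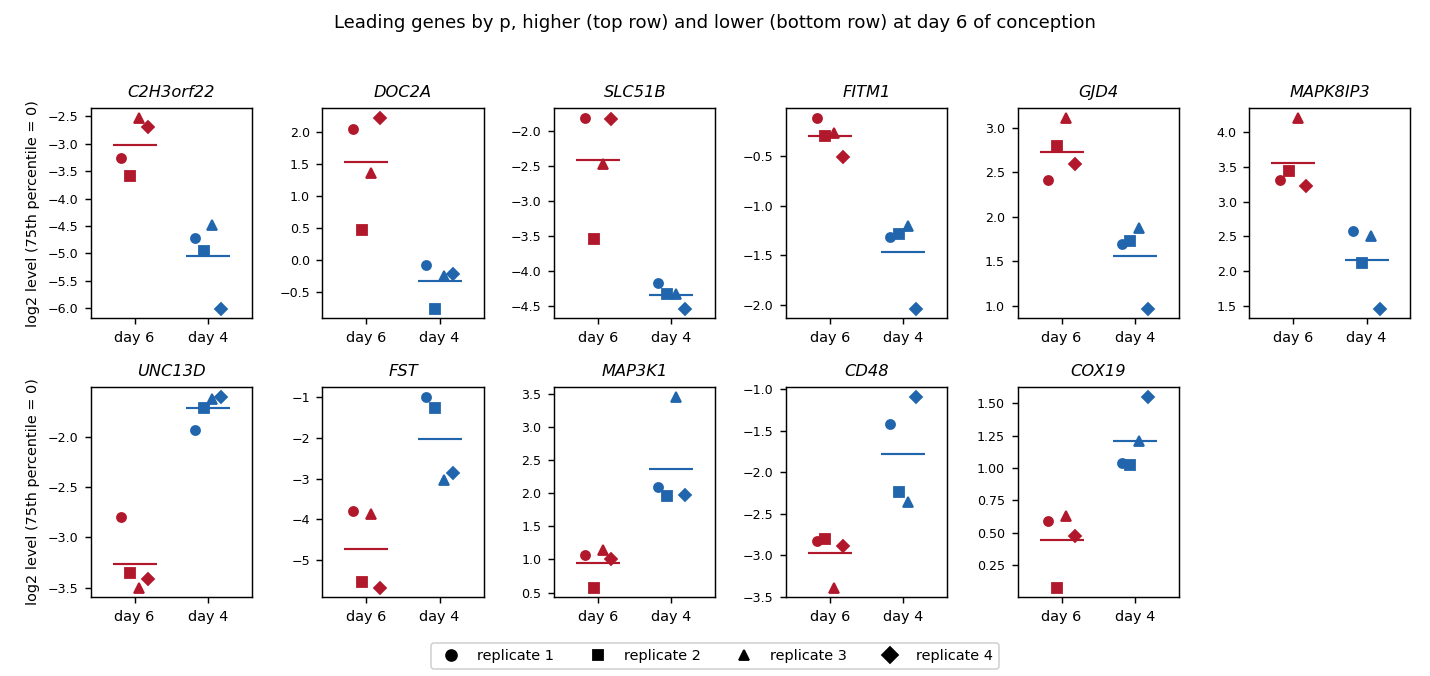
Log2 level relative to the array's 75th percentile (vertical axis) of leading genes that were higher (top row) and lower (bottom row) at day 6 of conception. Each panel gives the 4 day 6 arrays left of the 4 day 4 arrays, with a symbol per replicate and a line at the group mean. In all 11 panels the groups do not overlap, and the FST means differ by -2.68 on the log2 scale.

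GC-rich probes held 111 of the 388 features higher at day 6 at that unadjusted p. Probes with 65% or more G and C numbered 374 among the 10554 features, and 111 of them (29.7%) were higher at an unadjusted p under 0.05, against 3.68% of all features. Only 1 of the 374 was lower at that p. Their median difference was 0.41, against -0.0066 over all features. The median probe GC content was 55% among the 388 features higher at that p, 40% among the 129 lower and 41.7% over all features. 5 of the 10 genes named above have such probes, GJD4 (71.7%), MAPK8IP3 (68.3%), PLD4 (70%), ENTPD8 (71.7%) and TMEM145 (70%). On single arrays, the median deviation of these GC-rich features from their mean over the 8 arrays was 0.37, 0.45, 0.25 and -0.13 at day 6 and 0.11, -0.015, -0.15 and -1.01 at day 4. Day 4 replicate 4 was the lowest of all, and day 6 replicate 4 the lowest of the day 6 arrays. Each was the array of its day scanned at a single range. The part of scan range in these values was not tested. With each array's trend on probe GC content subtracted, a step chosen after seeing the data, the difference was 0.71 for GJD4, 1.02 for MAPK8IP3, 0.97 for PLD4, 0.82 for ENTPD8 and 0.64 for TMEM145. The same step gave 1.93 for C2H3orf22, 1.76 for DOC2A, 1.84 for SLC51B and -2.63 for FST.

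**Figure D2:**
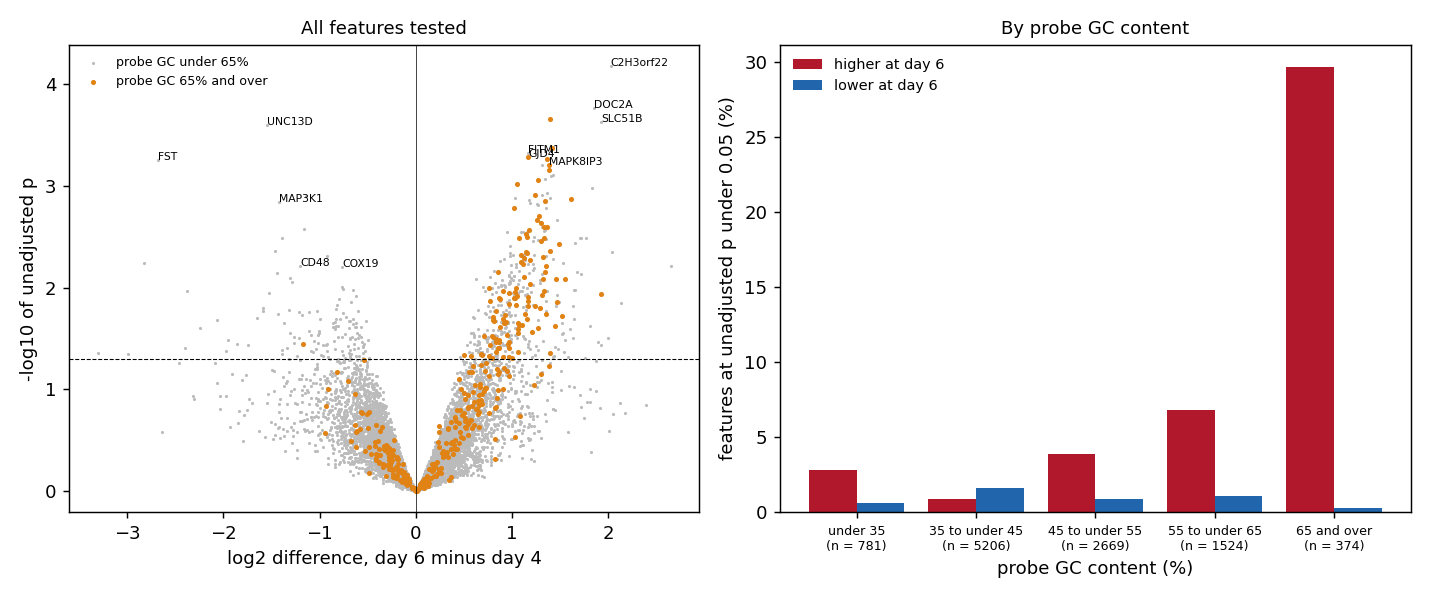
Left, log2 difference between day 6 and day 4 (horizontal axis) against -log10 of the unadjusted p (vertical axis) for the 10554 features, with probes of 65% GC and over in orange and a dashed line at the unadjusted threshold. Right, percent of features in each range of probe GC content that were higher (red) or lower (blue) at day 6 at an unadjusted p under 0.05. In the highest range 29.7% were higher and 0.267% lower.

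The genes that mark the secretory, receptive endometrium mostly had differences below 0, and none passed the threshold. Of 40 genes on this list, 32 had a named probe and 25 were measured, of which 20 were below 0, with a median difference of -0.55 against -0.0066 over all features. None passed the adjusted threshold. At an unadjusted p under 0.05, 2 of the 25 were lower, against 1.22% of all features, and none was higher, against 3.68%. Of the measured members, 5 passed the filter through day 4 alone, and with probes well above background on all 8 arrays the median was -0.30. The members' mean deviation, each taken from its mean over the 8 arrays, was 0.19, -0.68, -0.78 and -0.16 on day 6 arrays 1 to 4 and 0.13, 1.49, -0.077 and -0.11 on day 4 arrays 1 to 4, so day 4 replicate 2 was far above the other arrays. Without that array the median difference of the list was -0.30, and it was -0.30 within scan day 1 and -0.78 within scan day 2.

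PAEP, which encodes glycodelin, the main secretory protein of the glands, had levels of -2.99, -1.68, -3.39 and -3.17 at day 6, against -2.61, 1.35, -1.01 and -3.03 at day 4. Its difference was -1.48 (95% interval -3.31 to 0.35; limma adjusted p = 1.000), and the groups overlapped. CXCL14, a chemokine of secretory epithelium, had levels of -2.59, -3.58, -5.37 and -3.46 at day 6, against -2.22, 2.29, -3.96 and -2.97 at day 4. The CXCL14 difference was -2.04 (95% interval -4.64 to 0.57), with day 4 replicate 2 highest, and its probe was well above background on 2 of 4 day 6 arrays and 3 of 4 day 4 arrays. GPX3, a secreted glutathione peroxidase, had levels of 2.27, -0.37, 0.89 and -0.68 at day 6, against 1.4, 2.37, 2.93 and 0.97 at day 4, a difference of -1.39 (95% interval -2.72 to -0.066; limma adjusted p = 0.959). SPP1, osteopontin, an integrin ligand secreted by the glands, had levels of 0.82, -1.8, -0.91 and -2.16 at day 6, against -5.15, 2.51, 0.93 and -2.45 at day 4. SPP1 thus spanned several log2 units within each group, and its difference was 0.027 (95% interval -3.09 to 3.14).

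ANXA4, a calcium-dependent membrane-binding protein of secretory epithelium, was well above background on no day 6 array and on 3 of 4 day 4 arrays, with levels of -4.11, -4.47, -4.37 and -4.28 at day 6, against -4.51, 1.03, 1.19 and -2.94 at day 4. On the means of these arrays, day 6 was at least 7.25-fold lower (-4.31 ± 0.15 at day 6 and -1.31 ± 2.87 at day 4, limma adjusted p = 0.987). However, day 4 replicate 1 lay below every day 6 array, and day 4 replicates 2 and 3 were far above the other day 4 arrays. NNMT, which methylates nicotinamide and was well above background on 1 of 4 day 6 arrays and 3 of 4 day 4 arrays, differed by -2.09, with levels of -1.32, -5.69, -6.22 and -5.47 at day 6, against -2.15, -1.44, -4.93 and -1.84 at day 4. SLPI, a protease inhibitor of mucosal secretions, averaged 2.43 ± 1.26 at day 6 and 4.38 ± 0.87 at day 4 (SD, n = 4 each), a difference of -1.95 (limma adjusted p = 0.913). MUC1, a mucin of the apical epithelial surface, differed by -1.19.

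HOXA10 and MSX1, homeobox factors needed for receptivity, and IHH, a progesterone-induced epithelial signal to the stroma, showed small differences against their spread. HOXA10 differed by -0.25 (95% interval -1.4 to 0.91), MSX1 by 0.13 (-0.84 to 1.09) and IHH by 0.37 (-1.9 to 2.63). PTGS2, the inducible prostaglandin synthase, differed by -0.68 (-2.3 to 0.95). HSD17B2, the progesterone-induced enzyme that inactivates oestradiol, had levels of -4.54, -3.0, -0.83 and 3.58 at day 6, against -5.36, -3.07, -5.63 and -0.31 at day 4, a difference of 2.39 (-0.93 to 5.72). The within-scan-day differences of HSD17B2 were 4.34 for scan day 1 and 0.45 for scan day 2, and its probe passed the filter through day 6 alone. IGF1 differed by -0.64 (-1.95 to 0.67) and IGFBP3 by -0.11 (-1.06 to 0.84). LIF, IL6, PIWIL4, HRH1, IGFBP1, MKI67 and DPP4 had a probe but did not pass the filter, and no probe was named for PGR, ESR1 or FOXO1, which were not analysed here.

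**Figure D3:**
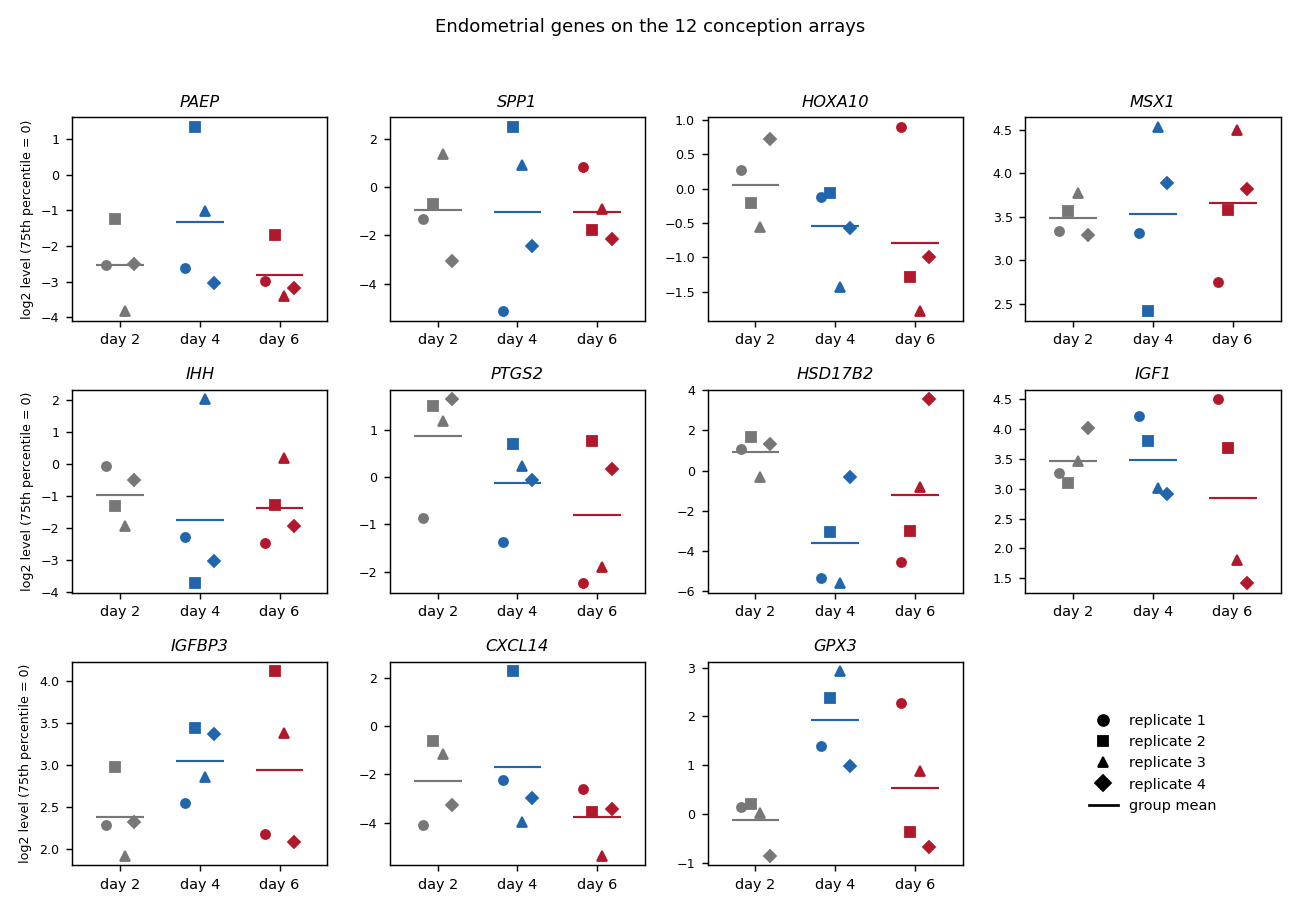
Log2 level relative to the array's 75th percentile (vertical axis) of 11 endometrial genes on the 12 conception arrays, by day 2, 4 and 6 (horizontal axis), with circles, squares, triangles and diamonds for replicates 1 to 4 and a line at the mean. Levels of the day 6 and day 4 arrays overlap in each of the 11 panels.

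Genes of hormone response and synthesis differed in both directions. Of 22 measured genes of the progesterone and glucocorticoid receptor pathway, 10 were above 0 and 12 below, with a median of -0.10, and of 0.056 within scan day 1 and -0.46 within scan day 2. ERRFI1, a feedback inhibitor of EGF receptors, differed by -1.02, with -0.15 within scan day 1 and -1.89 within scan day 2, and BMP2, a growth factor of decidual stroma, by 0.63. The 13 oestrogen-responsive genes had a median of 0.063, standing at -0.39 within scan day 1 and 0.30 within scan day 2, with the homeobox gene MSX2 at 0.36, the oviductal glycoprotein OVGP1 at -0.85 and the zinc transporter SLC39A6 at -0.45. Among 14 genes of steroid and retinoid metabolism (median 0.13), RBP4, the retinol carrier, had levels of 0.17, 1.74, 0.45 and -1.08 at day 6, against 0.44, 4.25, 2.18 and 3.4 at day 4. RBP4 differed by -2.24 ± 0.88 (limma adjusted p = 0.855), while HSD17B8, an oxidoreductase of steroids and fatty acids, differed by 0.47. In the prostaglandin pathway, 8 of 20 genes with a probe were measured (median 0.023). ABCC4, which exports prostaglandins, was lower on every day 6 array than on any day 4 array (0.90, 0.0011, 0.47 and 0.49 at day 6, against 1.13, 1.48, 1.12 and 1.15 at day 4). The prostaglandin receptor PTGER4, which passed the filter through day 4 alone, differed by -1.15 and the prostaglandin D synthase HPGDS by 0.76.

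Growth factor ligands and receptors were mostly within 1 log2 unit. IGF2, a growth factor of stroma and placenta, had levels of 3.02, 2.9, 2.95 and 2.36 at day 6, against 2.01, 1.41, 1.96 and 0.53 at day 4, without overlap (difference 1.33 ± 0.35; limma adjusted p = 0.579). Its probe held 70% G and C. IGFALS, a carrier of IGFs in blood, differed by 0.71, with a probe of 75% GC. The median of the 11 measured IGF genes was -0.17, with the binding protein IGFBP7 at 0.61. Of 10 genes of the EGF family list with a probe, 3 were measured. All 3 were below 0, the receptors ERBB2 (-0.57) and ERBB3 (-0.56) and ERRFI1, with a median of -0.57. ERBB3 passed the filter through day 4 alone, and without the filter the list median was 0.070. Of 34 TGF-beta, activin and BMP genes, 16 were above 0 (median -0.020), FST being the lowest, while LTBP4, a matrix protein that holds latent TGF-beta, was at 0.87 with a probe of 76.7% GC, and the ligand TGFB2 at -0.50. The 25 Wnt genes had a median of 0.086, with the factor TCF7L2 at -0.72, the ligand WNT11 at 0.80 and the antagonist WIF1 at -1.14. WIF1 was -2.59 within scan day 1 and 0.32 within scan day 2, and TCF7L2 passed the filter through day 4 alone. Among 18 Notch and hedgehog genes the median was 0.084, but -0.36 within scan day 1 and 0.34 within scan day 2, and the ligand JAG2 was at 0.63, the glycosyltransferase MFNG at -0.54 and the target HEY2 at -0.55. The 22 homeobox genes had a median of -0.093, with HOXB7 at 0.89.

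The 7 measured natural killer cell markers had differences above 0, with a median of 0.85. NCAM1 is among them through the filter on day 6 alone, being well above background on 3 of 4 day 6 arrays and 1 of 4 day 4 arrays, while the other 6 passed on both days. At an unadjusted p under 0.05, 1 of the 7 was higher, against 3.68% of all features, and none passed the adjusted threshold. NKG7, a protein of cytotoxic granules, had levels of 3.0, 2.48, 2.09 and 1.91 at day 6, against 1.78, 1.9, 1.5 and 0.64 at day 4. The NKG7 groups did not overlap, and the difference was 0.92 ± 0.37 (limma adjusted p = 0.890). GZMA, a granzyme, had levels of 3.18, 4.06, 3.77 and 4.05 at day 6, against 3.25, 3.89, -0.17 and 2.89 at day 4, a difference of 1.3 ± 0.68. NCAM1, the CD56 antigen, had levels of -4.24, -2.88, -2.87 and -2.67 at day 6, against -3.47, -4.2, -3.56 and -4.55 at day 4. The mean deviation of the 7 markers was 0.15, 0.47, 0.57 and 0.49 on the day 6 arrays and 0.15, 0.23, -1.48 and -0.58 on the day 4 arrays, with day 4 replicates 3 and 4 lowest. The median of the list was 1.28 within scan day 1 and 0.047 within scan day 2, and 0.42 without day 4 replicate 3. UNC13D, whose product acts in the same granules, was lower at day 6, as was CD48.

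T and B cell markers had a median of -0.37 (4 of 6 measured below 0). CD8B and CD8A, the chains of the CD8 co-receptor, differed by -1.19 and -0.92, both at an unadjusted p under 0.05, and CD2 by -0.65. That p was reached by 1.22% of all features in this direction. CD8B was well above background on 1 of 4 day 6 arrays and on 4 of 4 day 4 arrays, and CD8A on 1 of 4 and 3 of 4. Of the 6 measured markers, 2 passed the filter through day 4 alone and 1 through day 6 alone. Without the filter the median of the T and B cell list was 0.015, which turned its sign. Macrophage markers (7 of 9 below 0, median -0.24) included the complement component C1QC at -1.01, the receptor CSF1R at -0.82 and MS4A4A at 0.66. CSF1R passed the filter through day 4 alone. The macrophage median was -0.53 within scan day 1 and -0.092 within scan day 2, and 0.055 with normexp background, which turned its sign. The mast cell markers measured lay on opposite sides of 0, the tryptase TPSB2 at 0.95 with a probe of 68.3% GC and the receptor KIT at -0.83. TPSB2 passed the filter through day 6 alone. The amine oxidase MAOB of the histamine list was at -0.40. Of 29 cytokine and chemokine genes with a probe, 9 were measured and 7 were below 0 (median -0.23), with the chemokine receptor CXCR4 at -0.79 and the death ligand TNFSF10 at -0.54. Of these 9 genes, 2 passed the filter through day 4 alone. The 23 interferon-stimulated genes had a median of -0.051, and of 0.30 within scan day 1 and -0.22 within scan day 2. The immunoproteasome subunits PSMB9 and PSMB8 were at -0.52 and -0.48 and IFI6 at 0.81.

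Complement and coagulation genes were below 0 for 17 of 21 measured members (median -0.33), 3 of which passed the filter through day 4 alone. Their median was -0.55 within scan day 1 and -0.018 within scan day 2, and between -0.50 and -0.18 when single arrays were left out. C5AR1, the receptor of the C5a fragment, went the other way, with levels of 3.11, 3.1, 4.15 and 2.75 at day 6, against 2.36, 1.88, 2.41 and 1.0 at day 4, and a difference of 1.37 ± 0.36 (limma adjusted p = 0.579). Its probe held 66.7% G and C. Properdin, CFP, was also higher without overlap (0.57), and the complement inhibitor C4BPA was at -2.07, well above background on 1 of 4 day 6 arrays and 3 of 4 day 4 arrays. Metallothioneins, which bind zinc and copper, had the lowest median of the lists, -0.81, with 7 of 9 members below 0. MT2A had levels of 1.46, -0.82, -1.81 and -0.43 at day 6, against 2.24, 3.76, 0.55 and 0.12 at day 4, a difference of -2.07 ± 0.78 (limma adjusted p = 0.817). MT1G differed by -1.0 and MTF1, the factor that induces them, by -1.54, on a probe well above background on 1 of 4 day 6 arrays and 3 of 4 day 4 arrays. The mean deviation of the metallothionein list was 0.79, -0.66, -1.41 and -0.20 at day 6 and 1.03, 1.59, -0.48 and -0.66 at day 4, with high values on day 6 replicate 1 and day 4 replicates 1 and 2. These are the 3 arrays that the first principal component set apart, and the list median was -0.29 within scan day 1 and -1.42 within scan day 2.

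Cell cycle genes were above 0 for 37 of 41 measured members, against 49.1% of all features, yet their median of 0.28 depended on single arrays. Of the 41, 3 passed the filter through day 6 alone, BIRC5 among them, and none through day 4 alone. The mean deviation of the list was -1.28, 1.55, -0.058 and 0.39 on day 6 arrays 1 to 4 and -1.33, -0.58, 0.38 and 0.93 on day 4 arrays 1 to 4. Day 6 replicate 2 was highest and day 6 replicate 1 and day 4 replicate 1 lowest, so the spread within each day exceeded the difference between days. The median was -0.63 within scan day 1 and 1.11 within scan day 2, -0.25 without day 6 replicate 2 and 0.84 without day 6 replicate 1. BIRC5, survivin, differed by 1.05, and the cyclin-dependent kinases CDK4 and CDK2 by 0.55 and 0.71. Among the 17 inhibitors of the cycle (median -0.057), NDRG1, a growth arrest gene also induced by hypoxia, had levels of -2.14, -1.25, -2.04 and -1.27 at day 6, against -3.49, -3.32, -4.89 and -1.53 at day 4. NDRG1 differed by 1.63 ± 0.58 (limma adjusted p = 0.743), BTG1 by -0.58 and GADD45A by -1.03. Of 21 immediate early genes, 14 were below 0 (median -0.31). Of these 21, 3 passed the filter through day 6 alone and 2 through day 4 alone. The median was 0.022 within scan day 1, -0.15 within scan day 2 and -0.0076 without day 4 replicate 3. SOCS3, a feedback inhibitor of cytokine signalling, differed by 1.52, and the early response genes EGR3 and ZFP36 by 0.90 and -0.59.

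Cytoplasmic ribosomal protein genes were above 0 for 43 of 50 measured members, with a median of 0.34. At an unadjusted p under 0.05, 5 of the 50 were higher, against 3.68% of all features, and none was lower, against 1.22%. RPLP0 had levels of 6.14, 6.9, 5.91 and 6.88 at day 6, against 5.7, 6.11, 5.79 and 5.26 at day 4, and RPL23A of 6.37, 6.84, 6.44 and 6.92 at day 6, against 5.84, 6.26, 5.99 and 6.2 at day 4. Their differences were 0.74 ± 0.29 and 0.57 ± 0.23, and that of RPL6 was 0.64 ± 0.27 (limma adjusted p = 0.918). The mean deviation of the list was 0.030, 0.40, -0.033 and 0.27 at day 6 and -0.44, 0.12, -0.39 and 0.035 at day 4, so the groups overlapped. The median was 0.35 within scan day 1 and 0.32 within scan day 2, and between 0.24 and 0.45 when single arrays were left out, but 0.096 with quantile normalization. Heat shock proteins were above 0 for 21 of 28 (median 0.25), with HSPB1 at 0.96, HSPD1 at 0.61 and HSPH1 at 0.57. Their median was 0.50 within scan day 1 and -0.024 within scan day 2.

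Secretory pathway and metabolic genes lay near 0. The 57 genes of the secretory pathway and the unfolded protein response had a median of -0.027, with the oligosaccharyltransferase STT3A at 1.01, the translocon subunit SEC61A1 at 0.46 and the stress sensor CREB3L1 at 0.63. STT3A was 2.18 within scan day 1 and -0.16 within scan day 2. The 55 nuclear-encoded genes of oxidative phosphorylation had a median of -0.035 and a range of -0.36 to 0.53, with ATP5PD at 0.41 and ATP5F1D at 0.46. A separate ATP5F1D probe gave -0.028, with the opposite sign. The 35 genes of cholesterol and fatty acid synthesis had a median of -0.066, with lanosterol synthase LSS at -0.42, the acyltransferase GPAM at 0.37 and the sterol sensor SCAP at 0.40. Among 36 glycolysis and hypoxia genes (median 0.048), glycogen phosphorylase PYGM was at 0.81 and the glucose transporter SLC2A3 at -0.84. SLC2A3 was well above background on no day 6 array and 3 of 4 day 4 arrays, so it passed the filter through day 4 alone. On the means of these arrays, day 6 was at least 1.35-fold lower by the processed signal (-4.6 ± 0.60 at day 6 and -3.77 ± 0.47 at day 4, limma adjusted p = 0.856). With normexp background its difference was 0.17, in the opposite direction, so the bound does not hold there.

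Genes of matrix, epithelium and transport differed by gene rather than by list. Extracellular matrix genes had a median of -0.060 (19 of 40 above 0), with fibulin FBLN2 at -0.70 and the collagens COL6A2 and COL3A1 at 0.62 and 0.67. A separate COL6A2 probe gave 0.049. The list stood at -0.47 within scan day 1 and 0.39 within scan day 2. Proteases and inhibitors had a median of -0.18 (23 of 37 below 0), with the matrix protease ADAMTS8 at -1.49 and cathepsin CTSD at -0.93. Their median was -0.43 within scan day 1, -0.095 within scan day 2 and 0.0022 without the filter. ADAMTS8 passed the filter through day 4 alone and was 0.010 within scan day 2. Junction, keratin, mucin and integrin genes had a median of -0.047. KRT7 and KRT19, keratins of glandular and luminal epithelium, lay on opposite sides of 0. KRT7 had levels of -4.16, -1.21, -1.37 and -2.44 at day 6, against -4.1, -3.12, -3.28 and -4.29 at day 4 (difference 1.4 ± 0.62), and KRT19 of 2.28, 2.28, 2.45 and 1.16 at day 6, against 3.05, 2.57, 3.98 and 2.53 at day 4 (difference -0.99 ± 0.44), of which KRT19 showed no overlap. The tight junction protein CLDN1 was at -1.34. Among 33 transporters (median -0.043), SCNN1B, a subunit of the epithelial sodium channel, had levels of 1.73, 2.14, 1.66 and 1.79 at day 6, against 1.33, 1.06, 1.09 and 0.25 at day 4, without overlap (difference 0.90 ± 0.29; limma adjusted p = 0.694). Ion channel and calcium-binding genes were below 0 for 16 of 22 (median -0.32), with S100A4 at -0.80.

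All 7 measured endothelial markers were below 0, with a median of -0.34 and a range of -0.75 to -0.14, and none at an unadjusted p under 0.05. Of these 7, 1 passed the filter through day 4 alone, CDH5, which is also the lowest of them. The list median was -0.79 within scan day 1 and -0.064 within scan day 2, -0.16 without day 6 replicate 3 and 0.021 with normexp background, which turned its sign. VWF, the clotting factor stored in endothelium, differed by -0.45, the cadherin CDH5 by -0.75 and CLDN5 by -0.43. Day 6 replicate 3 was the lowest array for these markers and for stromal fibroblast markers, and day 6 replicate 3 is also the array with 616 outlier spots. The mean deviation of endothelial markers was 0.64, -0.30, -0.84 and -0.26 at day 6 and 0.16, 0.16, 0.66 and -0.22 at day 4, and that of stromal markers 0.49, 0.56, -1.09 and -0.14 at day 6 and 0.23, 0.33, -0.28 and -0.085 at day 4. Angiogenesis genes had a median of -0.050, with ANGPTL2 at 0.95, the endothelin receptor EDNRA at -1.21 and the endothelin EDN3 at 1.87, and both other EDN3 probes gave 1.86 and 1.85. Stromal fibroblast markers had a median of -0.20, standing at -0.55 within scan day 1 and 0.21 within scan day 2, with PDGFRB at -0.42 and COL1A2 at -0.29, while smooth muscle markers had 0.018, or -0.31 within scan day 1 and 0.31 within scan day 2, with SMTN at 0.66, DES at 0.73 and CALD1 at -0.20. Epithelial markers had a median of 0.11, 0.45 within scan day 1 and -0.52 within scan day 2. Motile cilium genes had a median of -0.17, with the axonemal SPAG6 at -1.32, the ciliogenesis factor FOXJ1 at 0.86 and the radial spoke protein RSPH9 at -0.63, and the ciliated cell markers, which add the filament protein TEKT1 at -0.45, had -0.17. The cilium list was -0.58 within scan day 1 and 0.29 within scan day 2, and SPAG6 passed the filter through day 4 alone. Red blood cell genes HBB and AHSP were at 0.10 and 0.56, and TFAP2A at 0.41. The part of these cell type markers in the differences of other genes was not tested.

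**Figure D4:**
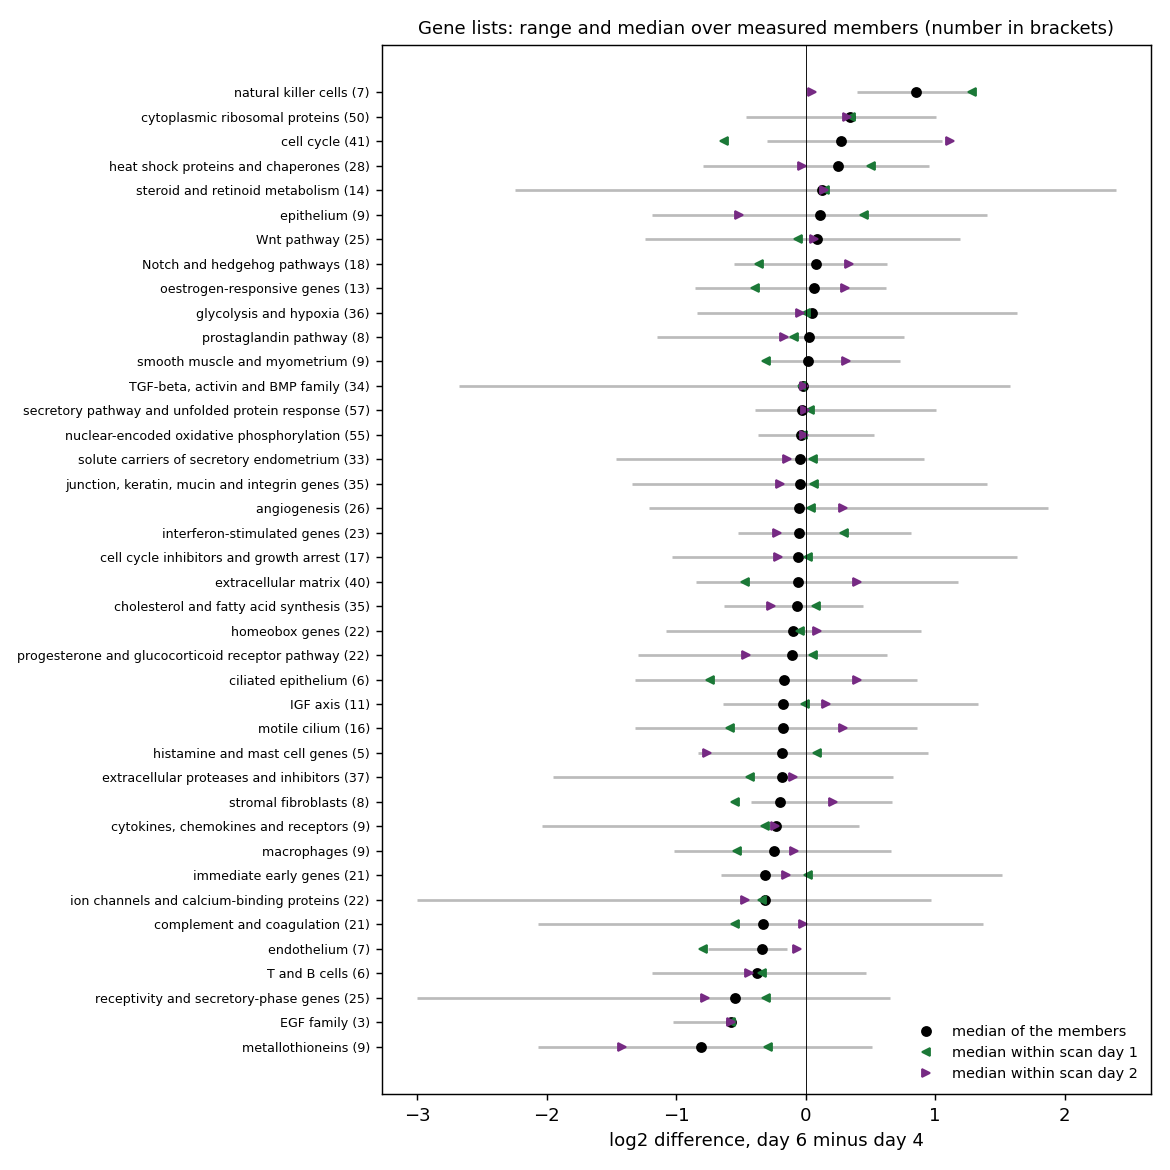
Log2 difference between day 6 and day 4 (horizontal axis) for the gene lists with at least 3 measured members, the number measured in parentheses. Black points are list medians, grey lines run over the members' range, and triangles give the medians within each scan day, which lie on opposite sides of 0 for the cell cycle (-0.63 and 1.11).

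**Figure D5:**
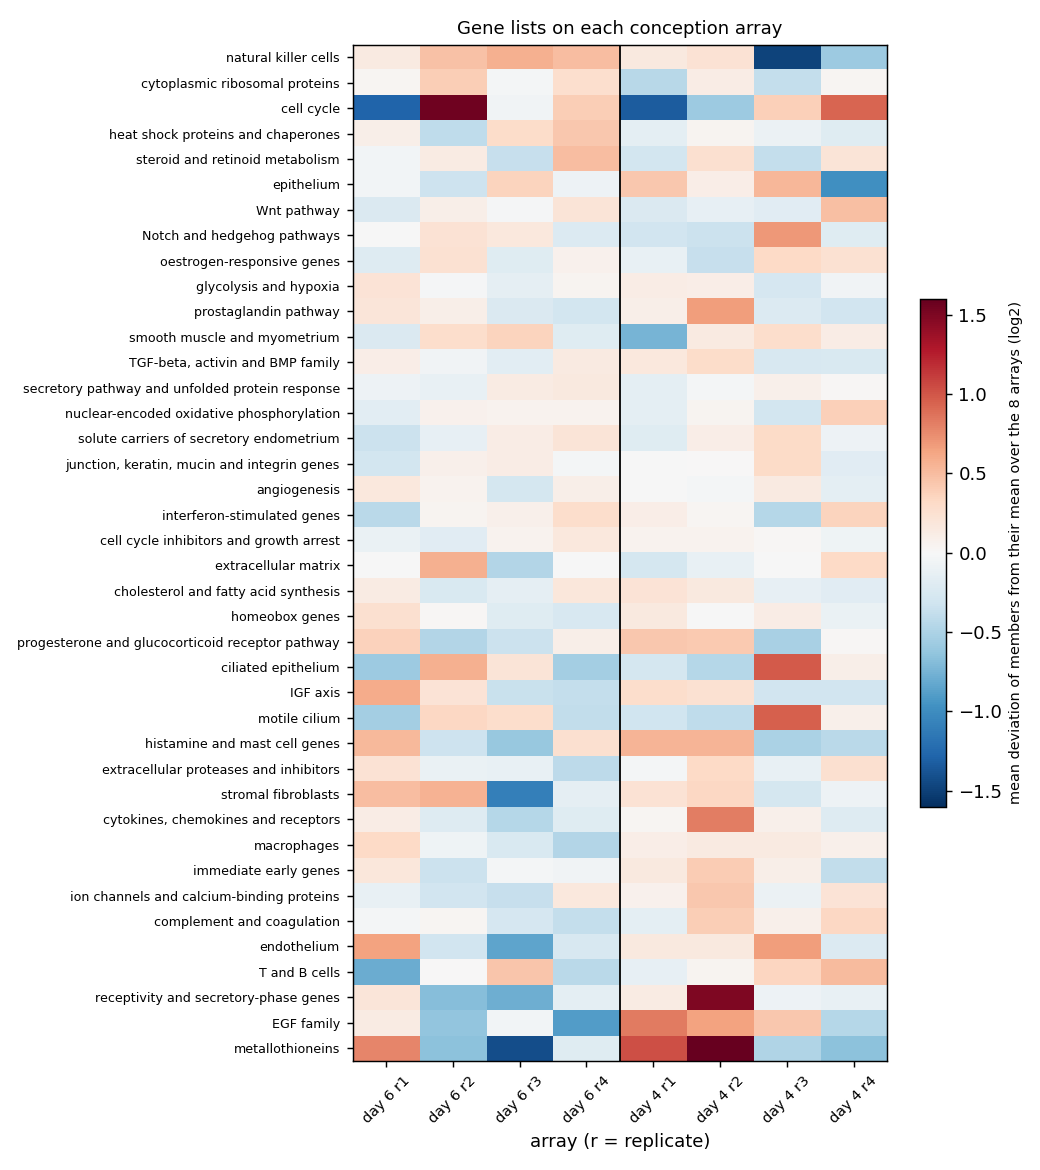
Mean deviation of the members of each gene list from their mean over the 8 arrays (colour, log2) on day 6 replicates 1 to 4 and then day 4 replicates 1 to 4 (columns). Receptivity genes and metallothioneins are highest on day 4 replicate 2, and cell cycle genes on day 6 replicate 2.

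Over the 44 lists, 15 medians were above 0 and 28 below, the neutrophil list having no measured gene. None of the 801 measured list genes passed the adjusted threshold in either direction. Among the named genes, ADAMTS8, C4BPA, CD8A, CD8B, CDH5, CLDN1, CSF1R, EDNRA, FST, MTF1, NNMT, ANXA4 and SLC2A3 were well above background on at most 1 of 4 day 6 arrays, and ANGPTL2, BIRC5, NCAM1, SOCS3, C2H3orf22 and SLC51B on at most 1 of 4 day 4 arrays, so their measured differences are set against signals near background. Probes of 65% GC or more also measured IHH (68.3%), COL6A2 (75%), PYGM (66.7%), ATP5F1D (66.7%), FOXJ1 (73.3%), KRT7 (65%) and CDHR5 (65%). With normexp background in place of the processed signal, the sign turned for TCF7L2, SLC2A3, CALD1, CDH5, CSF1R, HBB, SPP1 and MSX1, and with median scaling for SPP1.

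The same contrast was measured in non-mated cycles, on 8 separate arrays whose titles all say day 2, so every non-mated value and interaction below rests on their source names and day entries. There, 0 of 10554 features (0%) had an adjusted p under 0.05 in limma (lowest 0.814), and 383 (3.63%) had an unadjusted p under 0.05, 268 higher and 115 lower at day 6. Non-mated day 4 replicates 1 and 2 were weak, with 37.9% and 21.8% of probes well above background, as was non-mated day 2 replicate 3 with 4.33%, so non-mated values are given with all arrays and without the weak ones. Without them 0 features were called, and 163 had an unadjusted p under 0.05. The difference between the cycle types was tested as an interaction over all 24 arrays. No feature passed (0%), with a lowest adjusted p of 0.895 in limma, and 428 (4.06%) had an unadjusted p under 0.05, 205 above and 223 below 0. Without the weak arrays 0 were called, and 300 had an unadjusted p under 0.05. Natural killer markers had a median of 0.85 in conception cycles, against -0.73 in non-mated cycles with all arrays and 0.77 without the weak ones, which turned its direction. Cell cycle genes had a median of 0.28 in conception cycles, against -0.82 in non-mated cycles with all arrays and -0.87 without the weak ones. Receptivity genes had a median of -0.55 in conception cycles, against 0.30 in non-mated cycles with all arrays and 0.00013 without the weak ones. The differences between these list medians were not tested.

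The 5 genes with the smallest p among those with an interaction above 0 were DOC2A, KRT7, KIAA0562, CDHR5 and CCDC27. DOC2A differed by 1.85 in conception cycles, against -0.71 in non-mated cycles (0.27 without the weak arrays). Its interaction was 2.56 ± 0.79 (SE; limma adjusted p = 0.895), and 1.58 without the weak arrays. KRT7 differed by 1.4 in conception cycles, against -1.5 in non-mated cycles (-0.97 without the weak arrays). KIAA0562 differed by 1.77 in conception cycles, against -0.42 in non-mated cycles (-0.67 without the weak arrays). CDHR5, a protocadherin of microvilli, differed by 1.2 in conception cycles, against -1.98 in non-mated cycles (-0.60 without the weak arrays). CCDC27 differed by 1.84 in conception cycles, against -1.75 in non-mated cycles (0.23 without the weak arrays). For DOC2A and CCDC27 the sign of the non-mated difference thus rested on the weak arrays.

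The 5 with an interaction below 0 were SENP2, ARID5B, WDR37, LMO2 and RGCC, all lower at day 6 in conception cycles and higher in non-mated cycles with and without the weak arrays. SENP2, which removes SUMO from proteins, differed by -0.65 in conception cycles, against 1.2 in non-mated cycles (0.54 without the weak arrays). Its interaction was -1.85 ± 0.47 (limma adjusted p = 0.895), and -1.2 without the weak arrays. ARID5B, a DNA-binding regulator of transcription, differed by -0.55 in conception cycles, against 1.19 in non-mated cycles (0.70 without the weak arrays). WDR37 differed by -0.62 in conception cycles, against 0.81 in non-mated cycles (0.34 without the weak arrays). LMO2, a transcriptional cofactor of blood and endothelial cells, differed by -0.82 in conception cycles, against 0.73 in non-mated cycles (0.24 without the weak arrays). RGCC, a regulator of the cell cycle, differed by -0.90 in conception cycles, against 1.18 in non-mated cycles (0.61 without the weak arrays). Of the highest-ranked genes of the conception contrast, C2H3orf22, SLC51B and FITM1 differed by -1.46, -0.19 and -1.47 in non-mated cycles, and by 0.077, 0.78 and 0.30 without the weak arrays.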

How the data were processed

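Cy3 intensities of 24 Agilent 1-colour arrays were deposited as Feature Extraction scanner output, in version 9.5.3.1 per the file headers and 10.7.3.1 per the submitters' processing notes, with rheMac2 coordinates. The authors' deposited log2 value table was an alternative. Its scale tracked the scanner values (r between 0.982 and 0.999 over differences between arrays), while its centring and baseline stay unknown, with column medians between -0.41 and 2.85. Levels were log2 of the processed signal minus the array's 75th percentile, without control spots and outlier flags, averaging the 2 spots of a probe. The filter kept 11072 probes, those detected above background on 3 or more arrays of day 6 or of day 4. Each gene was represented by its probe of the highest mean, giving 10554 features, 7118 of them with a symbol. Of 20217 probes, 12556 had a symbol, from the files' own names or the RefSeq gene table (assembly T2T-MMU8v2.0, names only) and a hand table of full names. limma 3.58.1 in R 4.3.3 (lmFit, eBayes, two-sided, Benjamini-Hochberg) was fitted to the 12 conception arrays, and to all 24 for the interaction and the non-mated contrast. The fit was tested on simulated data.

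Genes were named by rule: the 10 smallest p in each direction with a symbol, the 3 smallest p of each list, a set of endometrial genes, and the 5 smallest interaction p in each direction. Some genes that the rule names are not reported here. The members and lists were chosen with earlier results of these data known. Same-numbered arrays of day 6 and day 4 deviated together with correlations of 0.63, -0.076, 0.49 and 0.25. The reported fit did not take the numbers to pair the samples. Alternatives covered arrays in the fit, scaling, background correction, filter, probe choice, prior, scan day, slide, scan range, replicate number, probe GC content, single arrays left out and the authors' table. The number of arrays limits the precision.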

Additional observations from a re-analysis of the deposited data

Results flagged for a closer look

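Among the named genes measured here, 290 groups of 4 arrays were examined for 1 array far from the other 3, by Dixon's ratio at its 95% critical value, and 17 were found. Chance finds about 1 in 20 groups. Day 4 replicate 2 held 4 of them, day 6 replicates 1 and 4 and day 4 replicate 4 held 3 each, day 4 replicate 3 held 2, day 6 replicate 3 and day 4 replicate 1 held 1 each, and day 6 replicate 2 held none. All values are log2 levels.

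On the day 6 arrays, CD48 on replicate 3 was lowest, at -3.39, with the nearest array at -2.89. GAS8 on replicate 4 was lowest, at -2.33, with the nearest array at -1.72. NNMT on replicate 1 was highest, at -1.32, with the nearest array at -5.47. TGFB2 on replicate 4 was highest, at 0.21, with the nearest array at -0.39. KRT19 on replicate 4 was lowest, at 1.16, with the nearest array at 2.28. NCAM1 on replicate 1 was lowest, at -4.24, with the nearest array at -2.88. LMO2 on replicate 1 was highest, at 0.0055, with the nearest array at -0.91.

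On the day 4 arrays, FITM1 on replicate 4 was lowest, at -2.03, with the nearest array at -1.32. MAP3K1 on replicate 3 was highest, at 3.46, with the nearest array at 2.09. ABCC4 on replicate 2 was highest, at 1.48, with the nearest array at 1.15. PTGER4 on replicate 2 was highest, at -1.75, with the nearest array at -3.1. TNFSF10 on replicate 3 was highest, at -1.27, with the nearest array at -2.43. IGFALS on replicate 4 was lowest, at -3.93, with the nearest array at -2.22. SLPI on replicate 2 was highest, at 5.69, with the nearest array at 3.98. CTSD on replicate 1 was highest, at 2.15, with the nearest array at 1.55. MS4A4A on replicate 4 was lowest, at -4.34, with the nearest array at -2.77. RGCC on replicate 2 was highest, at 0.86, with the nearest array at -0.60.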

How the results depend on the processing

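No feature passed an adjusted p under 0.05 in limma in either contrast, day 6 against day 4 in conception cycles or its interaction with cycle type, under any alternative run. The lowest adjusted p of the conception contrast over those alternatives was 0.0509, without day 6 replicate 2. Counts at an unadjusted p under 0.05 moved more: 517 features in the reported fit, 78 with all 24 arrays, 183 with normexp background, 290 within scan day 2, 810 within scan day 1, 896 with slide as a fixed block and 1064 without day 6 replicate 1. For the interaction, the reported 428 became 240 with normexp background, 736 when day 6 replicate 1 of the conception arrays was left out, 260 without conception day 6 replicate 3 or 4, 244 without non-mated day 6 replicate 2, and 1151, 737 and 185 when replicates 3, 4 and 2 of non-mated day 4 were left out in turn. A replicate block in place of the unpaired fit left 0 called and 734 at that p, with a lowest adjusted p of 0.290, and the interaction with a replicate block left 0 called and 365. The numbers were not shown to pair the samples. Day 6 replicates 1, 3 and 4 each correlated best with the day 4 array of the same number (0.63, 0.49 and 0.25). Day 6 replicate 2 correlated best with day 4 replicate 4 (0.25). Replicate 3 of both days lay on slide 7, and replicate 4 of both days on slide 8.

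Of the 145 named genes, 25 changed sign under at least 1 alternative, all with differences that had not passed; the cause was not tested. Within scan day 1, the differences were MSX2 -0.040, IGFBP7 -0.00077, MAOB 0.088, HBB -0.59, SPP1 -0.78, MSX1 -0.049 and IHH -0.39. With slide as a fixed block, which rests on the same 4 arrays, they were MSX2 -0.040, IGFBP7 -0.00077, MAOB 0.088, HBB -0.59, SPP1 -0.78, MSX1 -0.049 and IHH -0.39. Within scan day 2, they were OVGP1 0.21, WIF1 0.32, ADAMTS8 0.010, CDK2 -0.13, HSPH1 -0.019, STT3A -0.16, RSPH9 0.040, PDGFRB 0.053, CALD1 0.079, TEKT1 0.85, IGF1 0.086 and IGFBP3 0.16. With normexp background, they were TCF7L2 0.027, SLC2A3 0.17, CALD1 0.15, CDH5 0.021, CSF1R 0.055, HBB -0.023, SPP1 -0.17 and MSX1 -0.0074. With slide as a random block, they were HBB -0.027 and SPP1 -0.080. With median scaling, it was SPP1 -0.034. Without the slide 7 arrays, they were PDGFRB 0.11, COL1A2 0.098 and TEKT1 0.039. Without the slide 8 arrays, they were HBB -0.37, SPP1 -0.059 and IGFBP3 0.28. With single arrays left out, the difference ran for COL1A2 from -0.59 to 0.22, HBB from -0.46 to 1.28, SPP1 from -1.34 to 1.21, HOXA10 from -0.81 to 0.086, MSX1 from -0.25 to 0.46, IHH from -0.30 to 1.63 and IGFBP3 from -0.50 to 0.18. List medians above 0 numbered 15, and 11 to 21 over the alternatives. Signal over background limits the dim probes: 19 named genes were well above background on at most 1 array of a day, 13 of them at day 6 and 6 at day 4. Others were so on 2 of the 4 day 6 arrays, among them F2, CXCL14, PTGER4, TCF7L2, ERBB3 and SPAG6. HSD17B2 and TPSB2 were so on 2 of the 4 day 4 arrays. All these differences rest on signals close to background on the day named. The single-range scan was 1 of 4 arrays on each day.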
